A study of Mus musculus with 6 samples.

Results

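The p53 target genes described here are 10 genes that the transcription factor p53 is known to switch on: Cdkn1a, Mdm2, Gdf15, Pmaip1, Bbc3, Bax, Ccng1, Trp53inp1, Zmat3 and Phlda3. They were taken by gene symbol from a table of 18956 genes, and all 10 were found in it. RNA was sequenced from mouse lung endothelial cells, the cells that line lung vessels, in 6 libraries. The control group holds 3 libraries labelled WT and Cre-neg, and the other holds 3 libraries labelled CSE-KO and Cre-pos. The presence of Cre and the CSE-KO label coincide in all 6 libraries, so an effect of Cre and an effect of CSE loss cannot be told apart. CSE is cystathionine gamma-lyase, an enzyme encoded by Cth that makes cysteine and hydrogen sulfide. The Cre driver, the deleted part of Cth, the age and strain of the mice, and whether a library stands for 1 animal or 1 culture are not stated in the sources used. P-values therefore reflect the spread among these libraries alone, and that spread may be technical.

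p53 is held low in unstressed cells because the ubiquitin ligase Mdm2, itself a p53 target, marks it for breakdown. DNA damage, ribosome faults and other stresses free p53, which then binds DNA at pairs of a 10-base motif near its targets. The targets stop the cell cycle, trigger cell death, send stress signals to other tissues and feed back on p53. Several of them also answer to other factors. Gdf15, Pmaip1 and Bbc3 are known to be raised by the stress factors ATF4 and CHOP without p53.

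The deposited values are whole numbers read as normalized counts, that is, read counts divided by a size factor for each library and rounded. Their totals lay between 6028772 and 6052275 in WT and between 5698922 and 5765008 in CSE-KO. Cth was at 29, 27 and 26 for WT 1 to 3 against 49, 43 and 63 for CSE-KO 1 to 3, so the CSE-KO group had the higher values, which goes against its label. A value summed over the gene includes exons outside a deletion and does not check whether part of it was removed, so groups are named by their labels throughout. The 10 endothelial markers examined were present in every library, with sums of 15538 to 15849 in WT and 10509 to 11161 in CSE-KO. Of the 10, 9 were called lower in CSE-KO by the test given below, against 39.0% of all tested genes. The log2 fold changes of these 9 ran from −0.08 for Cdh5 to −1.57 for Tek. Replicates within WT, and CSE-KO 2 against CSE-KO 3, differed by no more than counting noise (mean squared difference over the sum 0.698 to 0.751 and 0.862, where counting noise gives 1), and CSE-KO 1 stood apart from the other CSE-KO libraries (1.64 and 1.93). Each count of changed members below was therefore also made with WT 1 to 3 as 1 sample, and with CSE-KO 2 and 3 as 1 sample too.

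To show what a p53 motif looks like at these genes, promoter sequences from RefSeq (GRCm38.p6, which shares coordinates with mm10) were searched for the p53 decamer, the 10-base unit of p53 sites. Each sequence runs from 250 bases before to 50 bases after an annotated start, and the decamer reads the same on both strands. Promoters were matched for 7 of the 10 members, with 11 starts, and none for Pmaip1, Trp53inp1 and Zmat3. The decamer was found at 4 of the 7 genes, Cdkn1a, Mdm2, Ccng1 and Bax, and at 9.55% of all 27025 genes in the RefSeq table (8.36% of 32851 promoters). No exact match lay in this window for Gdf15, Bbc3 or Phlda3, which says nothing about sites elsewhere or with a mismatch. The matches are shown here with 10 bases on each side, decamers in capitals, 5′ to 3′ on the strand of the gene.
Cdkn1a: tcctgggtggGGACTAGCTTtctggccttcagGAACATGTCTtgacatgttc
Mdm2: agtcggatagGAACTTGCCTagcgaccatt
Ccng1: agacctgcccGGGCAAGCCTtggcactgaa
Bax: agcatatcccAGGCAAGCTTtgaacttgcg
The Cdkn1a stretch lies at chr17:29090896-29090947 on the plus strand, and its decamers begin 73 and 51 bases before the upstream start, 12 bases apart. Pairs of exact matches with at most 13 bases between them were found in 24 of all promoters (0.0731%). At Cdkn1a the 10 bases that directly follow the decamer nearer the start match the motif in all but their first base. The search took exact matches only, so these bases are in lower case although they adjoin that decamer without a gap. The others are on the minus strand: Mdm2 at chr10:117710925-117710954 (decamer from 186 bases before the start), Ccng1 at chr11:40755452-40755481 (from 185) and Bax at chr7:45467080-45467109 (from 201). In GENCODE release M21 the Bax stretch falls within the gene Gm45808, outside its exons, and the other stretches fall in no gene. A match is a run of letters and not a measured binding site.

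All 10 p53 targets rose in the libraries labelled CSE-KO. The rises ranged from 1.28-fold for Bax to 11.8-fold for Pmaip1, and the sizes were uneven. Pmaip1 and Gdf15 rose over 11-fold, Bbc3, Mdm2 and Cdkn1a rose between 1.71-fold and 2.12-fold, and Trp53inp1, Phlda3, Zmat3, Ccng1 and Bax rose between 1.28-fold and 1.33-fold. Change was judged with limma over the 13750 genes that reached 10 in 3 or more libraries, a filter all 10 members passed, at an adjusted p under 0.05. Of all tested genes 77.4% were called, 38.3% upward and 39.0% downward, so a call alone says little, and the 5 smaller rises belong to a size of change common in these libraries. A rise larger than that of Bax was seen in 27.1% of tested genes and one larger than that of Trp53inp1 in 24.1%. The share was 9.19% for Bbc3, 12.0% for Mdm2, 13.4% for Cdkn1a, 1.59% for Gdf15 and 1.55% for Pmaip1. The members' median log2 fold change was 0.59, against 0.001 over all tested genes. The members were chosen with earlier results of these data known, which may have added to that difference. The groups did not overlap in any of the 10, where 80.4% of tested genes had groups that did not overlap, 40.0% with CSE-KO higher. At least a 2-fold rise was called in 3 of the 10 members and in 9.93% of tested genes. All 10 remained called with WT 1 to 3 as 1 sample, and with CSE-KO 2 and 3 as 1 sample as well. In bulk RNA a larger share of cells with the transcript and more of it per cell cannot be told apart.

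**Figure D1:**
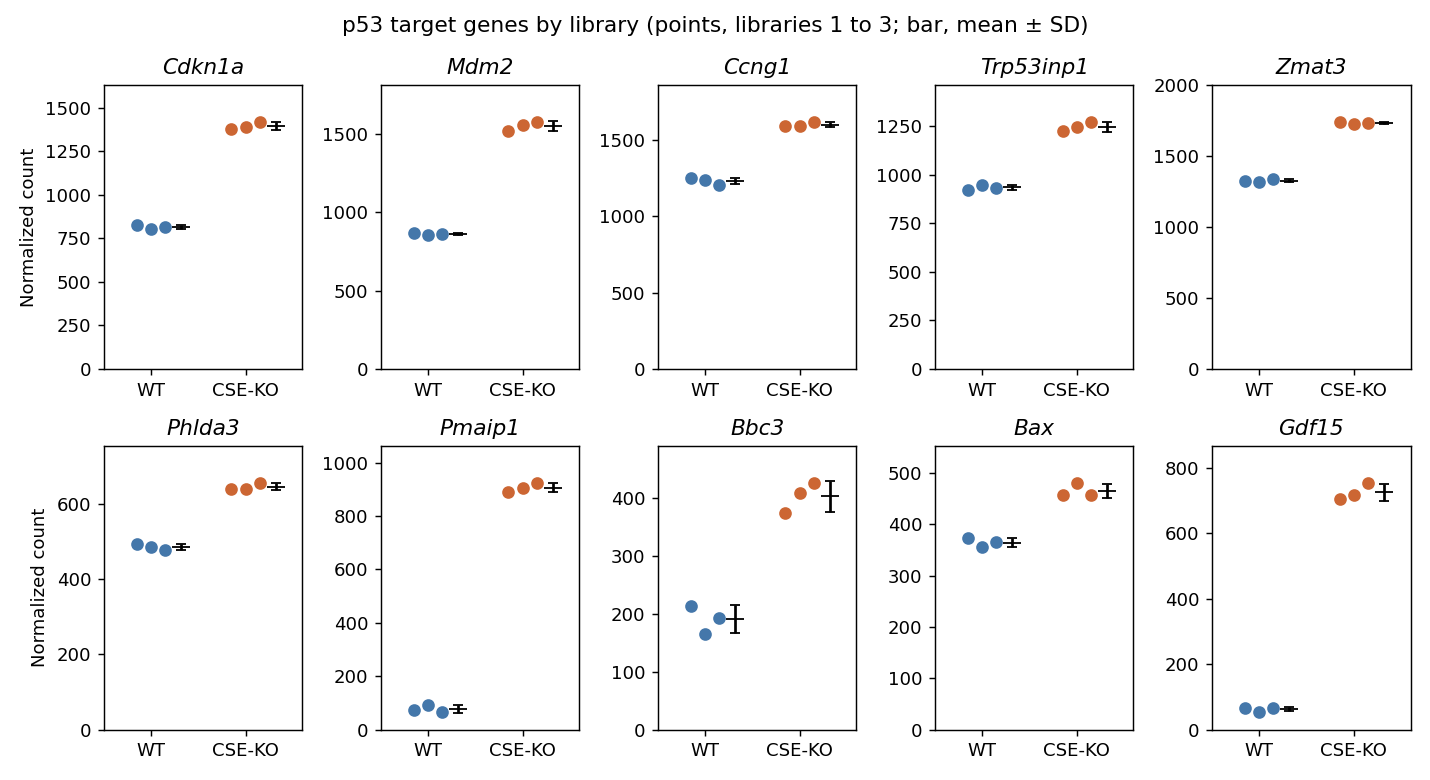
Normalized counts (y axis, from 0) of the 10 p53 target genes in each library, with WT in blue and CSE-KO in orange; points are libraries 1 to 3 of each group and bars are the mean ± SD (n = 3). In all 10 genes every CSE-KO library is above every WT library, with the widest gaps in Pmaip1 and Gdf15.

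Among the genes that act on the cell cycle and on p53 itself, Cdkn1a and Mdm2 rose by similar factors. Cdkn1a (ENSMUSG00000023067; mm10 chromosome 17, 29090976 to 29100727, plus strand) encodes p21, the inhibitor of cyclin-dependent kinases through which p53 halts the cycle. Its normalized counts stood at 826, 804 and 817 for WT 1 to 3 against 1375, 1390 and 1417 for CSE-KO 1 to 3. The groups did not overlap, and the lowest CSE-KO library was far above the highest WT library. The rise was 1.71-fold (95% interval 1.64 to 1.78; log2 fold change 0.77, SE 0.03, limma adjusted p = 9.66e-10). Mdm2 (ENSMUSG00000020184; mm10 chromosome 10, 117688875 to 117710758, minus strand), the ligase that sends p53 to the proteasome, was at 869, 857 and 860 across WT against 1517, 1560 and 1577 across CSE-KO. It rose 1.80-fold (1.73 to 1.87, adjusted p = 4.55e-10), and its WT libraries were within 1.39% of their mean of each other. The intervals of Cdkn1a and Mdm2 overlap, and the difference between their rises was not tested. Set against the WT mean, Mdm2 was 1.76-fold, 1.81-fold and 1.83-fold higher in CSE-KO 1 to 3, and Cdkn1a 1.69-fold, 1.7-fold and 1.74-fold. Cdkn1a shares 273 of its 3553 exonic bases with a gene model on the opposite strand, AC167363.2, which is not among the genes analysed here. Reads from either strand of that stretch may have been counted to Cdkn1a, since the sources used here do not state the strand setting of the counting.

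Ccng1 (ENSMUSG00000020326; mm10 chromosome 11, 40748552 to 40755311, minus strand) encodes cyclin G1, which brings a phosphatase to Mdm2 and so belongs to the feedback on p53. It was at 1247, 1238 and 1205 across WT against 1592, 1589 and 1616 across CSE-KO. The groups were clearly apart although the rise was only 1.30-fold (1.25 to 1.35, adjusted p = 7.38e-08). Ccng1 carries a decamer in its promoter as Cdkn1a and Mdm2 do, and its 95% interval lies below theirs.

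A set of 3 further targets with regulatory roles rose by nearly the same factor. Trp53inp1 (ENSMUSG00000028211; mm10 chromosome 4, 11156431 to 11174379, plus strand), a nuclear and autophagy-linked protein that promotes p53 activity, was at 924, 948 and 932 across WT against 1223, 1244 and 1272 across CSE-KO. Zmat3 (ENSMUSG00000027663; mm10 chromosome 3, 32334792 to 32366014, minus strand), an RNA-binding protein that changes splicing downstream of p53, was at 1326, 1315 and 1338 against 1740, 1724 and 1734. Phlda3 (ENSMUSG00000041801; mm10 chromosome 1, 135766119 to 135769136, plus strand), which competes with the kinase Akt for membrane lipids and so dampens it, was at 495, 485 and 479 against 640, 641 and 657. In none of the 3 did the groups overlap, and CSE-KO libraries of Zmat3 were within 0.923% of their mean of each other. The rises were 1.33-fold for Trp53inp1 (1.28 to 1.39, adjusted p = 8.49e-08), 1.31-fold for Zmat3 (1.27 to 1.35, adjusted p = 2.94e-08) and 1.33-fold for Phlda3 (log2 fold change 0.41, interval 0.34 to 0.48, adjusted p = 6.13e-07). The intervals of these 3 genes and of Ccng1 overlap one another.

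The death genes rose by very different factors. Pmaip1 (ENSMUSG00000024521; mm10 chromosome 18, 66458533 to 66465565, plus strand) encodes NOXA, a BH3-only protein that binds the survival protein MCL1. It was at 72, 93 and 67 across WT against 890, 906 and 925 across CSE-KO. WT was uneven, with WT 2 the highest, yet the lowest CSE-KO value stood far above it. The rise was 11.8-fold (9.86 to 14.1; log2 fold change 3.56, SE 0.11, adjusted p = 2.25e-08). Bbc3 (ENSMUSG00000002083; mm10 chromosome 7, 16308393 to 16318205, plus strand) encodes PUMA, a BH3-only protein that binds the survival proteins of the BCL2 family. It was at 214, 166 and 193 across WT against 374, 410 and 427 across CSE-KO. Its replicates were the least even of the members within CSE-KO, with CSE-KO 1 lowest, and the groups did not overlap. The rise was 2.12-fold (1.84 to 2.44, adjusted p = 2.77e-06).

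Bax (ENSMUSG00000003873; mm10 chromosome 7, 45461697 to 45466898, minus strand) encodes the effector that permeabilises the outer mitochondrial membrane once BH3-only proteins act. It was at 373, 355 and 365 across WT against 457, 481 and 458 across CSE-KO. The groups did not overlap, but the rise was small, at 1.28-fold (log2 fold change 0.35, 95% interval 0.26 to 0.44, adjusted p = 1.35e-05). Its interval overlaps those of Ccng1, Zmat3, Trp53inp1 and Phlda3. Bax was the only member no longer called when the test was made against a fold of 1.2 in either direction (adjusted p = 0.0559). The ratio of Pmaip1 to Bax within a library, which no scaling of libraries alters, was 0.193, 0.262 and 0.184 across WT and 1.95, 1.88 and 2.02 across CSE-KO. Bax shares 192 of its 1576 exonic bases with Gm45808, a gene model on the same strand that is not among the genes analysed here.

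Gdf15 (ENSMUSG00000038508; mm10 chromosome 8, 70629393 to 70632456, minus strand) encodes a secreted stress cytokine that acts on the hindbrain to curb appetite. It was at 67, 55 and 66 across WT against 705, 717 and 755 across CSE-KO. The CSE-KO libraries lay close together, far above every WT library. The rise was 11.5-fold (log2 fold change 3.53, 95% interval 3.35 to 3.70, SE 0.08, adjusted p = 8.88e-11), and its interval overlaps that of Pmaip1. Which of Gdf15 and Pmaip1 rose more depended on the setting, with log2 fold changes of 3.85 and 3.82 after the start-position correction, 3.58 and 3.51 without WT 1, and 3.57 and 3.46 without WT 3. The ratio of Gdf15 to Cdkn1a within a library was 0.0811, 0.0684 and 0.0808 across WT and 0.513, 0.516 and 0.533 across CSE-KO.

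**Figure D2:**
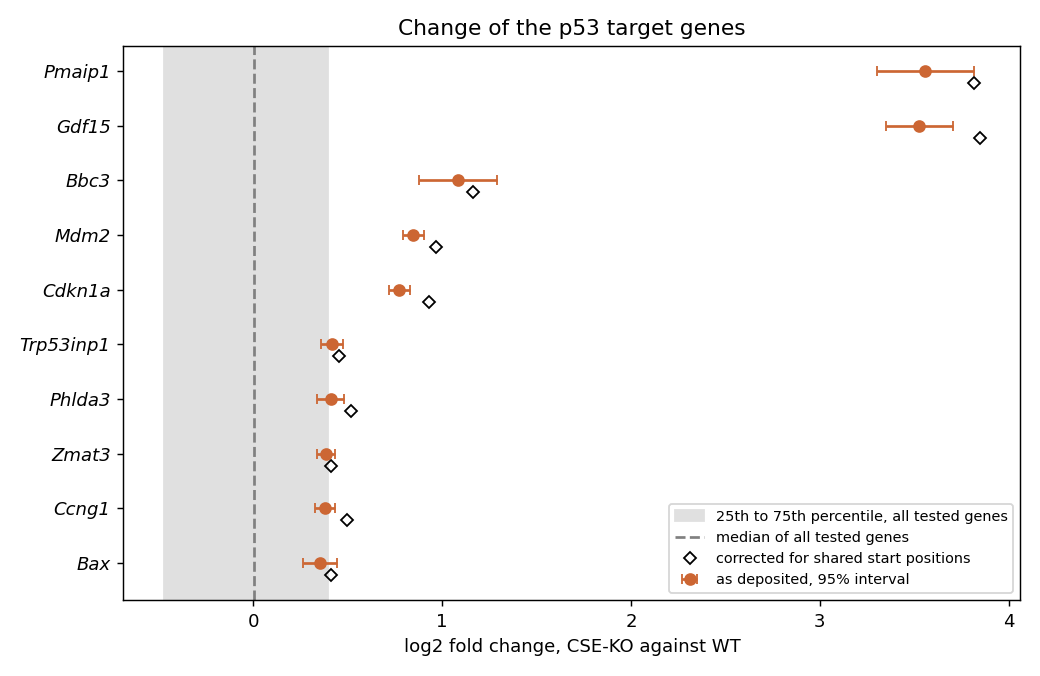
Log2 fold change of each p53 target gene, CSE-KO against WT (x axis), with 95% intervals from limma (filled points) and the value after a correction for reads removed at shared start positions (open diamonds); the grey band spans the 25th to the 75th percentile of all tested genes (−0.472 to 0.395). Pmaip1 and Gdf15 lie above 3, Bbc3, Mdm2 and Cdkn1a between 0.77 and 1.08, and the other 5 at the upper edge of the band.

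Divided by exonic length, the levels of the members drew closer together in CSE-KO. In WT, Ccng1 was the highest at 350 normalized counts per kilobase of exon, followed by Phlda3 (312), Bax (231), Cdkn1a (230), Mdm2 (170), Trp53inp1 (144), Zmat3 (116), Bbc3 (89.9), Gdf15 (33.8) and Pmaip1 (28.3). Bax and Cdkn1a, and Gdf15 and Pmaip1, did not differ from each other beyond their SD. The highest level was 12.4 times the lowest. In CSE-KO, Ccng1 (455) and Phlda3 (414) stayed in front, and Cdkn1a and Gdf15 stood level at 392. Pmaip1 came next at 332, then Mdm2 (305), Bax (295), Trp53inp1 (193), Bbc3 (190) and Zmat3 (152). Cdkn1a and Gdf15, Mdm2 and Bax, and Trp53inp1 and Bbc3 did not differ beyond their SD, and the highest level was 3.01 times the lowest. Gdf15 thus moved from rank 9 of the 10 to rank 4, and Pmaip1 from rank 10 to rank 5.

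**Figure D3:**
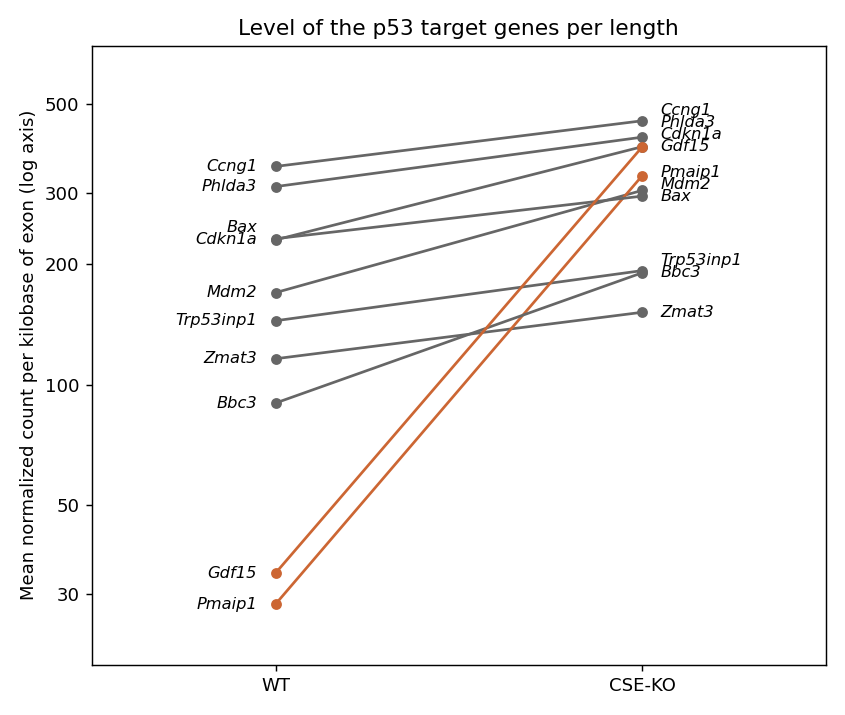
Mean normalized count per kilobase of exon (y axis, log scale) of each p53 target gene in WT (left) and CSE-KO (right); lines join the group means of a gene (n = 3 libraries each), with genes that rose over 3-fold in orange. Gdf15 and Pmaip1 climb from the bottom of the set in WT to its middle in CSE-KO.

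Within the CSE-KO group the members had no single order of libraries. CSE-KO 1 was lowest in 8 of the 10 members, while Ccng1 and Zmat3 were lowest in CSE-KO 2. Over all genes, CSE-KO 1 was lowest in 54.6% of the 5270 genes called upward, and the difference from the members was not tested. Set against the WT mean, Bbc3 was 1.96-fold higher in CSE-KO 1, 2.15-fold in CSE-KO 2 and 2.24-fold in CSE-KO 3. For Gdf15 the values were 11.2-fold, 11.4-fold and 12.0-fold, and for Zmat3 1.31-fold, 1.30-fold and 1.31-fold. Without CSE-KO 1 all 10 stayed called, with a median log2 fold change of 0.61.

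High values may understate a change if reads with the same start position were removed, a step that Picard can perform and whose use here is not given. In CSE-KO, Ccng1 had 0.455 normalized counts per exonic base, Phlda3 0.414, Cdkn1a 0.392 and Gdf15 0.392. The variance over the libraries was below the mean in 8 of the 10 members in WT and in 9 in CSE-KO. The share over all tested genes was not computed, so these counts do not show whether reads were removed. A correction by exonic length raised the fold of every member, that of Gdf15 to 14.4, Pmaip1 to 14.1, Mdm2 to 1.96, Cdkn1a to 1.91 and Phlda3 to 1.43. The median log2 fold change of the members was 0.73 after it, and all 10 were called. The formula enlarges any rise, whether or not reads were removed. The larger folds and the calls therefore do not show that reads were removed, which was not tested.

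Among 58 further genes known as p53 targets in mouse or human, responses were mixed. Of the 56 tested, 33 rose (58.9%, against 38.3% of all tested genes), 15 fell and 8 were not called, with a median log2 fold change of 0.34. The membrane receptor kinase Epha2 rose from 1524, 1503 and 1524 across WT to 2337, 2371 and 2423 across CSE-KO (adjusted p = 1.02e-09). Gadd45a, named for its induction by growth arrest and DNA damage, was at 279, 299 and 304 against 661, 665 and 699, a mean 2.30 times that of WT. Eda2r, a death receptor of the TNF family, was at 820, 804 and 801 against 1317, 1361 and 1390. Aen, a nuclease that acts in cell death, was at 478, 462 and 480 against 902, 902 and 964. These genes were picked for the smallest adjusted p among the rises, a choice that favours groups without overlap. None of them had overlapping groups, where 80.4% of tested genes had none.

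The sestrins, which restrain mTORC1 signalling when amino acids or redox balance fail, moved apart. Sesn2, which is also an ATF4 target, rose from 660, 629 and 656 to 1161, 1169 and 1194 (log2 fold change 0.86, adjusted p = 1.27e-09). Sesn1 fell from 343, 359 and 352 to 158, 130 and 152 (log2 fold change −1.26, adjusted p = 5.47e-08). Other p53 targets that fell were the phosphatase gene Ptpn14 (log2 fold change −0.46), the transcriptional repressor gene Hic1 (−0.92), Zfp365 (−0.62) and the proline pathway enzyme gene Aldh4a1 (−0.75). In each of these 4 genes the CSE-KO libraries were all below the WT libraries. They too were picked for the smallest adjusted p, which favours such a gap.

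Trp53cor1, the long noncoding RNA also called lincRNA-p21, was singled out after its values were seen because it neighbours Cdkn1a. It lies on chromosome 17 on the minus strand, 11797 bases from the start of Cdkn1a in the table. It was at 27, 38 and 31 across WT against 130, 159 and 138 across CSE-KO. The groups did not overlap, and the rise of 4.42-fold (3.53 to 5.55, adjusted p = 1.73e-07) was larger than that of Cdkn1a, with intervals that do not meet.

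p53 itself and its regulators moved in both directions, at shares near those of all tested genes. Trp53, which encodes p53, was at 714, 715 and 688 across WT against 841, 810 and 848 across CSE-KO, a 1.18-fold rise (1.12 to 1.24, adjusted p = 3.31e-05). That rise was not called against a fold of 1.2, and p53 is set largely at the protein level, which was not measured. Mdm4, the partner of Mdm2 that blocks the activation domain of p53, was at 770, 767 and 762 against 602, 581 and 555. It fell by 0.40 on the log2 scale (adjusted p = 1.16e-06) while Mdm2 rose, and the ratio of Mdm2 to Mdm4 went from 1.13, 1.12 and 1.13 across WT to 2.52, 2.69 and 2.84 across CSE-KO. Of 22 regulators tested, 9 rose (40.9%), 9 fell and 4 were not called, where 38.3% of all tested genes rose and 39.0% fell, and their median log2 fold change was 0.03. The split was 12 risen and 7 fallen with equal totals or upper-quartile scaling, and 9 and 6 with WT 1 to 3 as 1 sample.

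The damage kinase genes Atm and Prkdc, which act before p53, were among the regulators that fell. Chek2, Chek1 and Atr also fell (log2 fold change −1.82, −0.32 and −0.26), while the kinase gene Hipk2 of the same list rose (0.53). Atm, which signals DNA breaks, was at 708, 705 and 661 across WT against 387, 426 and 376 across CSE-KO (log2 fold change −0.80, adjusted p = 8.02e-08). Prkdc, the DNA-dependent protein kinase, was at 452, 483 and 495 against 274, 239 and 268 (log2 fold change −0.87, adjusted p = 1.63e-07). Ppp1r13l, which encodes the p53 inhibitor iASPP, rose from 338, 330 and 321 to 617, 599 and 670 (log2 fold change 0.93). Kat8, an acetyltransferase of histone H4 and p53, rose from 163, 179 and 168 to 294, 288 and 306 (log2 fold change 0.80).

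Cell cycle genes that p21 lowers through the DREAM repressor complex all fell, 18 of 18, where 39.0% of tested genes fell. Their median log2 fold change was −1.68. The 3 genes named next were picked for the smallest adjusted p, and their falls (log2 fold change −0.76 to −0.86) were smaller than that median. The largest fall was that of Cenpf (−3.36). The mitotic activator Cdc20 was at 677, 642 and 671 across WT against 403, 395 and 375 across CSE-KO (adjusted p = 2.37e-08). The ubiquitin carrier Ube2c was at 374, 369 and 391 against 231, 222 and 203, and the mitotic kinase Aurka at 489, 458 and 452 against 279, 232 and 259. CSE-KO 1 had the highest value of the CSE-KO group in all 18. It did so in 5075 of the 13750 tested genes, a count that takes rises and falls together. With WT 1 to 3 as 1 sample and CSE-KO 2 and 3 as 1 sample, the median log2 fold change of the 18 was −1.56.

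Genes of the integrated stress response, the programme run by ATF4 and CHOP, rose in 13 of 14 and fell in 0, where 38.3% of all tested genes rose, with a median log2 fold change of 0.86. Sesn2 and Ddit4 belong to this list and to the further p53 targets. Atf4 was at 752, 707 and 745 across WT against 1024, 1033 and 1025 across CSE-KO (log2 fold change 0.48). Ddit3, which encodes CHOP, was at 63, 50 and 50 against 339, 344 and 353 (log2 fold change 2.67, adjusted p = 2.13e-09). Atf5, a transcription factor of the same family, was at 365, 375 and 372 against 1247, 1259 and 1278. Asns, asparagine synthetase, was at 440, 428 and 409 against 1229, 1238 and 1230. Ppp1r15a, the phosphatase subunit that ends the response, was at 836, 833 and 827 against 1480, 1524 and 1518. Whether p53 or the stress factors act on Gdf15, Pmaip1 or Bbc3 here was not tested.

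**Figure D4:**
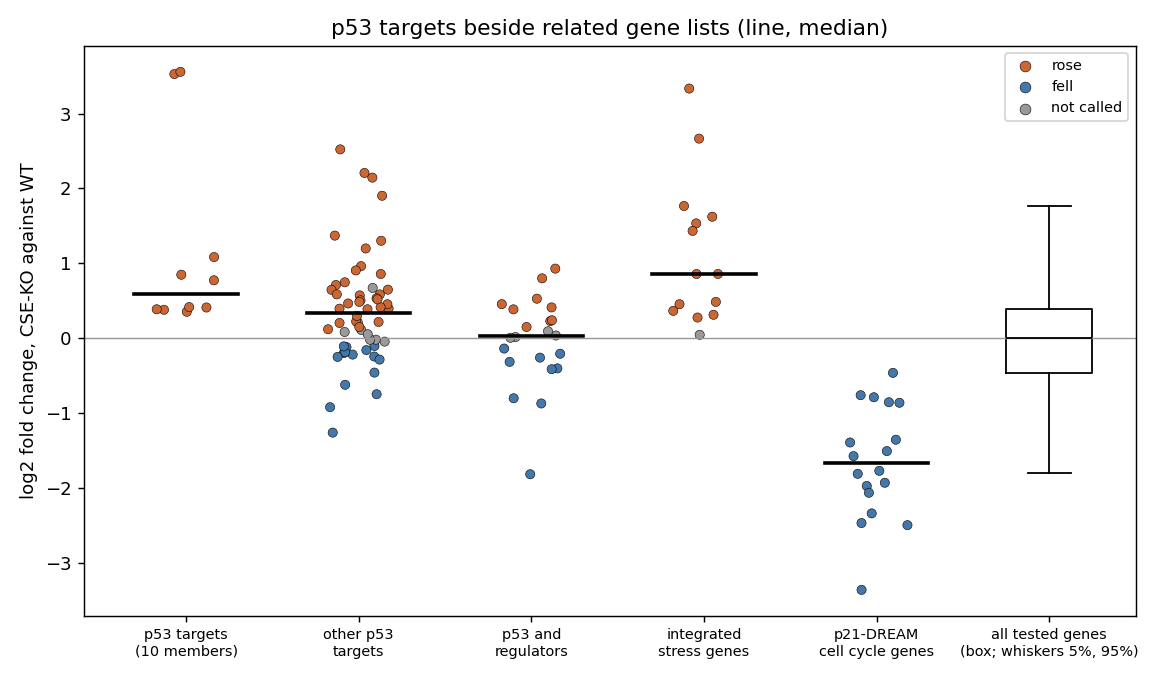
Log2 fold change, CSE-KO against WT (y axis), of the 10 p53 targets, 56 other p53 targets, 22 genes for p53 and its regulators, 14 integrated stress genes and 18 cell cycle genes, beside a box of all 13750 tested genes; points are genes (orange rose, blue fell, grey not called) and black lines are list medians. The medians are 0.59, 0.34, 0.03, 0.86 and −1.68, against 0.001 for all tested genes.

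Transcripts of other cell types also moved between the groups, where 38.3% of all tested genes rose and 39.0% fell. Of 12 macrophage markers, 11 rose and 1, Cd14, fell, and their summed normalized counts lay between 956 and 984 in WT and between 1436 and 1629 in CSE-KO. Cd14 made up most of the WT sum, at 788, 775 and 775 across WT against 315, 216 and 187 across CSE-KO. Without it, a split made after the values were seen, the other 11 summed to 168 to 209 in WT and 1121 to 1413 in CSE-KO. The leukocyte genes Ptprc, Adgre1 and Itgam were at 0 in all WT libraries and at most 62 in any CSE-KO library. Of 5 mesothelial markers, 4 were tested and rose, with sums of 191 to 192 in WT and 628 to 719 in CSE-KO. Mural and fibroblast markers rose in 2 and fell in 2 of 7 tested, with sums of 1390 to 1474 and 1697 to 2038. Of 8 epithelial markers, 2 were tested, 1 fell, and the sums were 312 to 350 and 249 to 271. Of 6 lymphocyte markers, 1 was in the table, at sums of 1 to 3. The 10 p53 targets summed to 6316 to 6413 in WT and 10513 to 10838 in CSE-KO, and the part of other cell types in that difference was not tested.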

How the data were processed

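RNA from miRNeasy micro kits (Qiagen) was built into stranded mRNA libraries with a Vazyme kit from 300 ng and read as single ends of 75 bp, per the labels' protocols. The submitters' processing notes name Trimmomatic 0.39, STAR 2.7.3a, Picard 2.21.7, featureCounts 1.6.5, DESeq2 1.26.0 and build mm10, without roles. The deposited values are a whole-number score per gene, read from the values as normalized counts: recomputed size factors lay between 1.003 and 1.008, and 3 libraries skip some whole numbers. The depth in reads is thus known only approximately.

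Log2(value + 0.5) was tested with limma 3.58.1 in R 4.3.3 (group model, mean trend, robust variances, two-sided, Benjamini-Hochberg over 13750 genes with at least 10 in at least 3 libraries). Fold changes are on that scale, which understates the change of low genes. Exonic lengths are unions of GENCODE M21 exons. The start-position correction was −L ln(1 − value/L) with L the exonic length. The procedure was also run on simulated data with the same spread in every library. These libraries differ from that setting, and no result here rests on the simulation. The named genes were all members, Cth, Trp53, Mdm4, Atf4, Ddit3, and those with the smallest adjusted p in each list (5 rises and 5 falls of further targets, 4 regulators, 3 cell cycle, 3 stress). Members and lists were chosen with earlier results of these data known. No set test was run.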

Additional observations from a re-analysis of the deposited data

How the results depend on the processing

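Of 19 alternatives (scaling, filters on low values, pseudocounts, limma settings, a test against a fold of 1.2, a replicate block, leaving out each library, merged replicates and the start-position correction), all 10 p53 targets kept their rise and their call in each, except Bax against a fold of 1.2. Over 35 named genes, 662 of 664 values kept direction and call, the other exception being Trp53 against that fold, and none reversed. Alternatives that alter only the filter, the limma settings, the tested fold or the block leave the fold change as it was. The start-position formula can only enlarge a change. None of these could reverse a direction, and many of the named genes were picked for a small adjusted p. Against a fold of 1.2, 6711 genes, 30 other p53 targets and 11 regulators were called, in place of 10639, 48 and 18, as that test asks for a larger change. With WT 1 to 3 as 1 sample and CSE-KO 2 and 3 as 1 sample, 7 of the 18 cell cycle genes were called, and that fit has fewer samples. Leaving out 1 library gave 10137 to 10636 called genes and 10 members each time. Same-numbered libraries did not deviate together (correlations −0.000786, 0.02 and 0.0109). WT replicates differed by no more than counting noise, so this check cannot decide whether the numbers pair libraries. With the replicate block 10440 genes and all 10 members were called. Equal totals and upper-quartile scaling moved the median of all genes to 0.08 and 0.09. The low WT values of Pmaip1 and Gdf15 limit the precision of their folds.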
